A study of Mus musculus with 4 samples.

Results

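The MYC, MAX and MXD network was followed in 2 populations of mouse lymphoid progenitors through all probe sets of the Affymetrix MOE430_2 array that the platform annotation assigns to Myc, Mycn, Max, Mxd1, Mxd3, Mxd4, Mxi1, Mnt or Mga and to no other gene. The members were chosen by name, and 24 of 45037 probe sets, for 9 of 18193 genes, met the rule. The samples were 4 arrays of RNA from 2000 cells each, with 2 of each fraction, CLP_RAGhigh and CLP_RAGlow. Both are fractions of the common lymphoid progenitor, the bone marrow cell from which B, T and natural killer cells derive. They were taken from C57Bl6 mice between 8 and 12 weeks of age, and the sample descriptions name the fractions by high or low GFP, without describing the reporter or any other allele or treatment. The replicates are labelled biological with no mention of separate mice or sorts, so every p-value below measures only the spread between these samples.

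MYC and its relative N-MYC switch on genes of growth and ribosome production, and they bind DNA only as dimers with MAX, a small partner without an activation domain of its own. The MXD proteins (MXD1, MXI1, MXD3 and MXD4), MNT and MGA compete for the same partner, bind the same E-box and recruit co-repressors, so the network is usually read as a balance between activating and repressing partners of MAX. In the mouse, Myc and Mycn act together in blood stem cells, and MXD genes are known for their expression in cells that leave the cell cycle, apart from Mxd3, which is known from dividing cells.

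The shared binding sequence is CACGTG, a palindrome, and it was searched in the promoter windows that RefSeq gives on GRCm38.p6. Each runs from 250 bases before to 50 after the start that the window uses. There were 10 windows for 8 of the 9 genes, all but Myc, with 3 of them for Mxi1. The sequence was in 3 of the 10, those of Max, Mnt and Mxd4, and in 7.15% of all 32851 windows. These 3 windows are shown since they place the network's own binding letters at 3 of its genes, with CACGTG in capitals and 12 bases on each side, read in the direction of the gene.
Max: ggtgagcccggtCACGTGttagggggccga
Mnt: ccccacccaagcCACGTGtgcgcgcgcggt
Mxd4: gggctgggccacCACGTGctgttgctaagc
The Max window lies at chr12:76962234-76962263 on the minus strand, with the 6 letters across the start that its promoter window uses. The Mnt window lies at chr11:74830789-74830818 on the plus strand, with its first capital 123 bases before such a start. The Mxd4 window lies at chr5:34187912-34187941 on the minus strand, 219 bases before such a start. These starts need not be where the annotated gene begins, which is 74830806 for Mnt, inside the printed bases, and 76962323 for Max. A match of letters is a description and shows no binding. Max and Mxd4 were higher on both CLP_RAGhigh arrays than on either CLP_RAGlow array, as 15.4% of all genes were. Mnt was lower on both, as 15.8% were. The differences of these 3 genes, given below, were near their standard errors. A link of the sequence to these values was not tested.

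Values are the authors' RMA intensities on a linear scale, and differences are given in log2 as CLP_RAGhigh minus CLP_RAGlow with the standard error of limma. For a gene with several probe sets the brightest is given first. Median intensities of the arrays ran from 14.6 to 14.9. The median of all probe sets, 3.88 in log2, is taken here as the limit of dim values, and all 9 genes lay above it. Rag1, which encodes the recombinase subunit the groups are named for, had intensities of 1939 and 1577 on the CLP_RAGhigh arrays and 211 and 369 on the CLP_RAGlow arrays. Of the progenitor's own markers, Dntt ranged from 10745 to 11583 and Flt3 from 1605 to 2312 over the 4 arrays. Il7r was at 3592 and 1611 in CLP_RAGhigh against 1211 and 1557 in CLP_RAGlow, and Cd27 at 309 and 282 against 458 and 346. Of the 9 measured, Rag1 among them, 3 were separated above and 1 below (15.4% and 15.8% over all genes). These 9 summed to 21831 to 27157 in CLP_RAGhigh and 20223 to 21983 in CLP_RAGlow. The 6 measured T cell markers summed to 121 to 155 over the 4 arrays and the 6 stromal and endothelial ones to 72 to 100. Granulocyte and monocyte markers summed to 3408 to 3502 in CLP_RAGhigh and 3190 to 4315 in CLP_RAGlow. Among them S100a8 was at 790 and 774 in CLP_RAGhigh, 1134 on CLP_RAGlow replicate 1 and 14.0 on CLP_RAGlow replicate 2. Csf1r was at 110 and 306 in CLP_RAGhigh against 633 and 747 in CLP_RAGlow. Of the 8 measured in this list, 1 was separated above and 1, Csf1r, below (15.4% and 15.8% over all genes). Natural killer and innate lymphoid markers summed to 207 to 280 in CLP_RAGhigh and 139 to 189 in CLP_RAGlow. Erythroid and megakaryocyte markers summed to 159 to 209 and 96 to 126, and dendritic markers to 2865 to 3804 and 4034 to 5264. The sums of the natural killer, erythroid and dendritic lists did not overlap between the groups. Of the 7 dendritic markers, 1 was separated above and 2 below (15.4% and 15.8% over all genes). Irf8 was at 1529 and 1023 in CLP_RAGhigh against 1707 and 2269 in CLP_RAGlow. Siglech went the other way, at 34.4 and 38.1 against 31.7 and 27.0. In the erythroid list Klf1 alone was at 123 and 66.2 in CLP_RAGhigh against 37.9 and 13.0 in CLP_RAGlow. In the natural killer list Klrd1 alone was at 216 and 150 against 86.1 and 137. Of the 7 natural killer markers, 5 lay below the median of all probe sets, as did 3 of the 6 erythroid ones. Of 7 markers of committed B cells, 4 were above and 1 below without overlap (15.4% and 15.8% over all genes). An unadjusted limma p under 0.05 was found for 3 of the 7, all upward, against 2.35% of all genes, and 0 passed limma over all genes. Cd79a was at 82.8 and 57.6 in CLP_RAGhigh against 20.7 and 13.5 in CLP_RAGlow. The summed intensities of the 7 overlapped, at 2810 to 4982 in CLP_RAGhigh against 2526 to 3309 in CLP_RAGlow. Ighm made up most of each sum, at 4501 and 2418 against 2314 and 3086. Pax5, which defines B-cell commitment, was at 40.6 and 17.8 against 14.0 and 12.7, below the median of all probe sets on both CLP_RAGlow arrays. The part of these markers in the results below was not tested. The ratio of 3' to 5' signal of Actb, which grows with RNA breakdown and with amplification, was 16.2 and 9.62 on the CLP_RAGhigh arrays and 13.5 and 24.5 on the CLP_RAGlow arrays.

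No gene of the network passed limma at an adjusted p under 0.05, and 0 of all 18193 genes did in either direction (0.0% each way). Of the 9 genes, Myc, Max, Mxd4 and Mga were separated above, meaning that each CLP_RAGhigh array exceeded each CLP_RAGlow array, and Mnt was separated below. Over all genes 15.4% were separated above and 15.8% below. Mga alone had an unadjusted limma p under 0.05, which 2.35% of genes had upward and 2.94% downward. The median log2 difference of the 9 genes was -0.26, against 0.00275 over all genes. Its sign was not stable, as the median was 0.0039 without CLP_RAGhigh replicate 1 and 0.0945 without CLP_RAGhigh replicate 2. It was -0.16 without CLP_RAGlow replicate 1, -0.12 without CLP_RAGlow replicate 2 and -0.058 with probe sets averaged. In sorted bulk samples fewer cells that express a gene and less RNA per cell cannot be told apart.

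**Figure D1:**
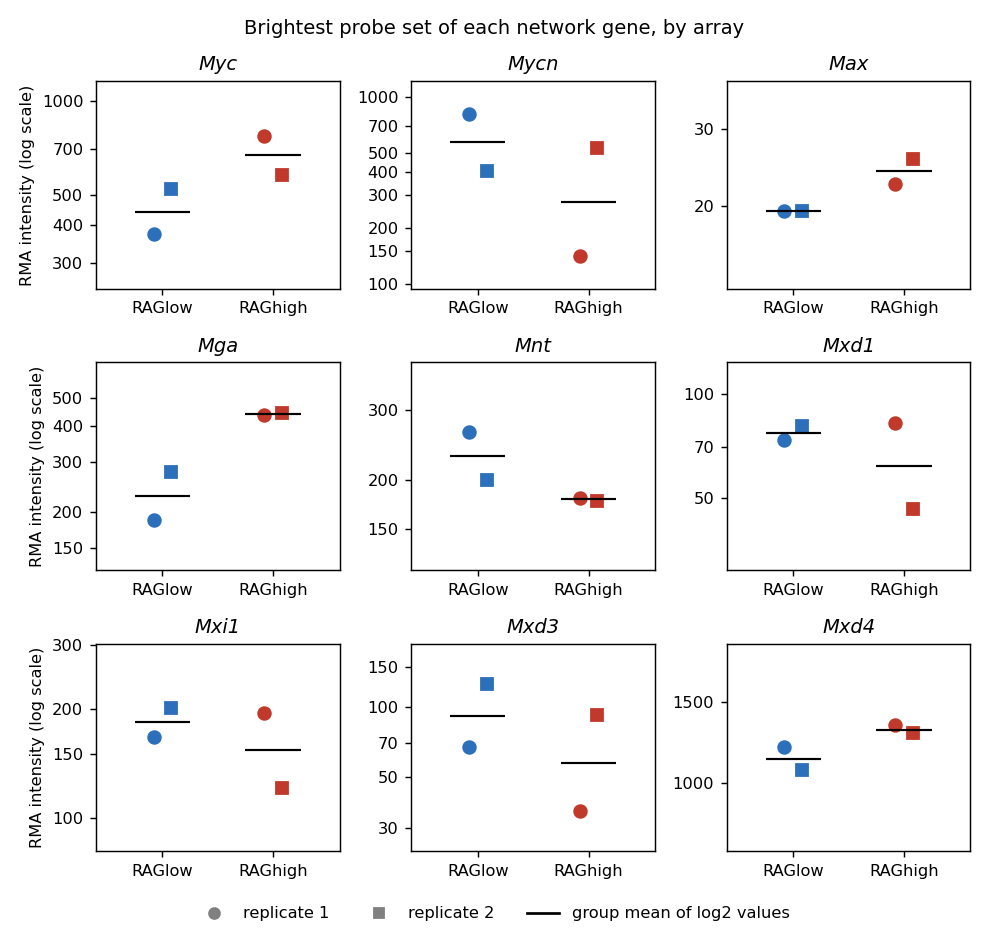
RMA intensity (log scale) of the brightest probe set of each network gene on each array, with circles for replicate 1, squares for replicate 2 and a line at each group's mean of log2 values. Mga is at 436 and 446 on the CLP_RAGhigh arrays and at 188 and 276 on the CLP_RAGlow arrays, whereas the groups of Mycn, Mxd1, Mxi1 and Mxd3 overlap.

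Myc, the founding activator, is measured by 1 probe set. Its intensity was 775 and 578 on CLP_RAGhigh replicates 1 and 2 and 373 and 520.5 on CLP_RAGlow replicates 1 and 2. Both CLP_RAGhigh arrays were higher, but the nearest arrays of the groups, at 578 and 520.5, lay close together. The log2 means were 9.39 ± 0.30 and 8.78 ± 0.34 (SD, n = 2 each). CLP_RAGhigh was thus 0.60 ± 0.31 (SE) higher in log2, 1.52-fold, with a limma adjusted p of 0.979 and a 95% interval from -0.17 to 1.38. The difference was 0.39 without CLP_RAGhigh replicate 1 and 0.36 without CLP_RAGlow replicate 1. Myc is also known as an early response gene, and Fos, of the same response and chosen here after its values were seen, had an intensity of 4942 on CLP_RAGhigh replicate 1, the array with the highest Myc, against 140.1, 155 and 36.0 on the other arrays. What Fos and Myc share on that array was not tested.

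Mycn, the activator that can stand in for Myc in the mouse, was the most variable gene of the network, with a range of 2.53 log2 units over the 4 arrays. Its brightest probe set had intensities of 141 and 532 in CLP_RAGhigh and 814 and 405 in CLP_RAGlow. The groups overlapped, since CLP_RAGhigh replicate 2 was above CLP_RAGlow replicate 2, and the low mean of CLP_RAGhigh came from replicate 1. The log2 means were 8.10 ± 1.35 and 9.16 ± 0.71 (SD, n = 2 each), with a difference of -1.07 ± 0.69 (limma adjusted p = 0.983, 95% interval -2.78 to 0.65). Without CLP_RAGhigh replicate 1 the difference was -0.11, and without CLP_RAGhigh replicate 2 it was -2.02. The other 2 probe sets of Mycn differed by 0.27 (51.9 and 48.7 in CLP_RAGlow, 62.1 and 59.5 in CLP_RAGhigh, no overlap) and by -0.08. The average over all 3 was -0.29, so the sign of Mycn depends on the probe set.

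The log2 value of Myc minus that of Mycn was compared only between arrays, since probe sets of different genes cannot be set against each other. It was 2.46 and 0.12 on the CLP_RAGhigh arrays and -1.13 and 0.36 on the CLP_RAGlow arrays. The mean difference between groups was 1.67, but the groups overlapped, with CLP_RAGlow replicate 2 above CLP_RAGhigh replicate 2.

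Max, which encodes the shared dimer partner of the network, has 1 probe set, which was weak on all arrays. Its intensity was 22.5 and 25.7 in CLP_RAGhigh and 19.5 on both CLP_RAGlow arrays. The groups did not overlap, and the difference was 0.30 ± 0.27 (SE), with a limma adjusted p of 1.0 and an interval from -0.38 to 0.98. With 32 added to each value before log2, which damps differences near the background, it was 0.12.

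Mga, the largest protein of the network, carries a T-box besides its MAX-binding domain and belongs to a Polycomb-type repressor complex. Its brightest probe set had intensities of 436 and 446 in CLP_RAGhigh and 188 and 276 in CLP_RAGlow. The CLP_RAGhigh arrays were nearly equal, and the CLP_RAGlow arrays were both lower and farther apart. The log2 means were 8.78 ± 0.024 and 7.83 ± 0.40 (SD, n = 2 each). CLP_RAGhigh was thus 0.95 ± 0.34 (SE) higher in log2, 1.93-fold. The limma adjusted p was 0.887 and the interval 0.12 to 1.78. Leaving out 1 array gave 0.67, without CLP_RAGlow replicate 1, to 1.23, without CLP_RAGlow replicate 2.

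The 5 probe sets of Mga did not share a direction. The second brightest, at 80.3 and 102 in CLP_RAGhigh and 31.7 and 75.1 in CLP_RAGlow, differed by 0.89 ± 0.53 in the same direction without overlap. A dim one, 1422646_at, ran the other way without overlap, at 8.76 and 7.94 against 14.8 and 18.4, a difference of -0.99 ± 0.25 (limma adjusted p = 1.0 over all probe sets). Its CLP_RAGhigh values were below the array median, and with 32 added before log2 its difference was -0.27. The other 2 probe sets were dim and differed by 0.13 and 0.01. Averaging all 5 gave 0.20 for Mga in place of 0.95.

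Mnt, the broadly expressed repressor that opposes MYC in most tissues, was the one gene with both CLP_RAGhigh arrays below. Its intensity was 180.2 and 177 in CLP_RAGhigh and 265 and 199.9 in CLP_RAGlow. The nearest arrays of the groups were at 180.2 and 199.9, and the difference was -0.37 ± 0.34 (SE), with a limma adjusted p of 1.0 and an interval from -1.21 to 0.48. It was -0.16 without CLP_RAGlow replicate 1. The weaker probe set of Mnt, at 30.6 and 39.3 against 36.9 and 34.4, overlapped and differed by -0.04. Myc minus Mnt in log2 was 2.11 and 1.71 on the CLP_RAGhigh arrays and 0.49 and 1.38 on the CLP_RAGlow arrays, a difference of 0.97. The lack of overlap in it is no further result, since it follows from Myc being separated above and Mnt below. It was computed after both genes' values were seen and is a description with no test.

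Mxd4 had the smallest spread of the 9 genes, a range of 0.32 log2 units over the 4 arrays. The brightest probe set of this MXD repressor had intensities of 1334 and 1282 in CLP_RAGhigh and 1194 and 1068 in CLP_RAGlow. The groups did not overlap, and the difference was 0.21 ± 0.19 (SE), or 1.16-fold (limma adjusted p = 1.0, interval -0.25 to 0.68). All 4 of its probe sets had a higher mean in CLP_RAGhigh and 3 of them did not overlap. The widest difference was in 1422574_at, at 50.6 and 57.5 against 27.8 and 28.9, which is 0.93 ± 0.33 (limma adjusted p = 1.0), while 1434379_at, at 178 and 142 against 157 and 147, overlapped at 0.07. The probe sets of Mxd4 thus shared a direction but not a size, and their average was 0.41.

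Mxd3, the MXD gene known from the S phase of dividing cells, had lower means in CLP_RAGhigh in all 3 probe sets. The brightest was at 35.6 and 92.4 in CLP_RAGhigh and 67.4 and 126 in CLP_RAGlow. These groups overlapped, and the difference was -0.68 ± 0.59 (SE, limma adjusted p = 1.0, interval -2.15 to 0.78). The sign rested on 1 array, as the difference was 0.0039 without CLP_RAGhigh replicate 1. The weaker probe sets did not overlap, at 16.8 and 20.7 against 26.0 and 32.3 for 1448878_at and at 15.4 and 19.5 against 21.4 and 22.6 for 1422970_at, with differences of -0.64 and -0.34. Proliferation genes were also lower in CLP_RAGhigh. The summed intensity of 15 such genes was 6950 and 10086 in CLP_RAGhigh and 12520 and 16032 in CLP_RAGlow, without the overlap seen in the brightest Mxd3 probe set. Of the 15 proliferation genes, 12 were lower without overlap, against 15.8% of all genes, and their median was -0.52 without CLP_RAGhigh replicate 1. Their part in the Mxd3 values was not tested.

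Mxd1 and Mxi1, the MXD repressors known from maturing blood and other differentiating cells, gave no separation in their brightest probe sets. Mxd1 had intensities of 82.2 and 46.2 in CLP_RAGhigh and 73.6 and 80.7 in CLP_RAGlow, a difference of -0.32 ± 0.42 (SE). Mxi1 had 194 and 122 against 168 and 202, a difference of -0.26 ± 0.39. For both genes CLP_RAGhigh replicate 2 was the lowest array, and without it the differences were 0.09 for Mxd1 and 0.08 for Mxi1. The 95% intervals, -1.36 to 0.72 and -1.23 to 0.71, allow a change of more than 1.5-fold in either direction. The other 2 probe sets of Mxd1 differed by 0.09 and 0.05 with overlap, and the weaker probe set of Mxi1, at 20.6 and 21.3 against 25.6 and 23.6, was lower without overlap at -0.23.

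Over all 24 probe sets, the mean of CLP_RAGhigh was above that of CLP_RAGlow for 13 and below it for 11. The groups were separated above for 8 and below for 5, where 15.3% of the 45037 probe sets were above and 15.0% below. The 8 came from Mxd4 (3), Mga (2), Myc, Max and Mycn, and the 5 from Mxd3 (2), Mga, Mnt and Mxi1. Probe sets of the same gene share its transcripts and are not independent. Differences ran from -1.07, in Mycn, to 0.95, in Mga, and 0 probe sets passed limma at an adjusted p under 0.05, as did 0 of all probe sets (0.0% each way), while 3 had an unadjusted limma p under 0.05, 1 of Mga and 1 of Mxd4 upward and 1 of Mga downward. Of all probe sets 2.12% were so upward and 2.44% downward.

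**Figure D2:**
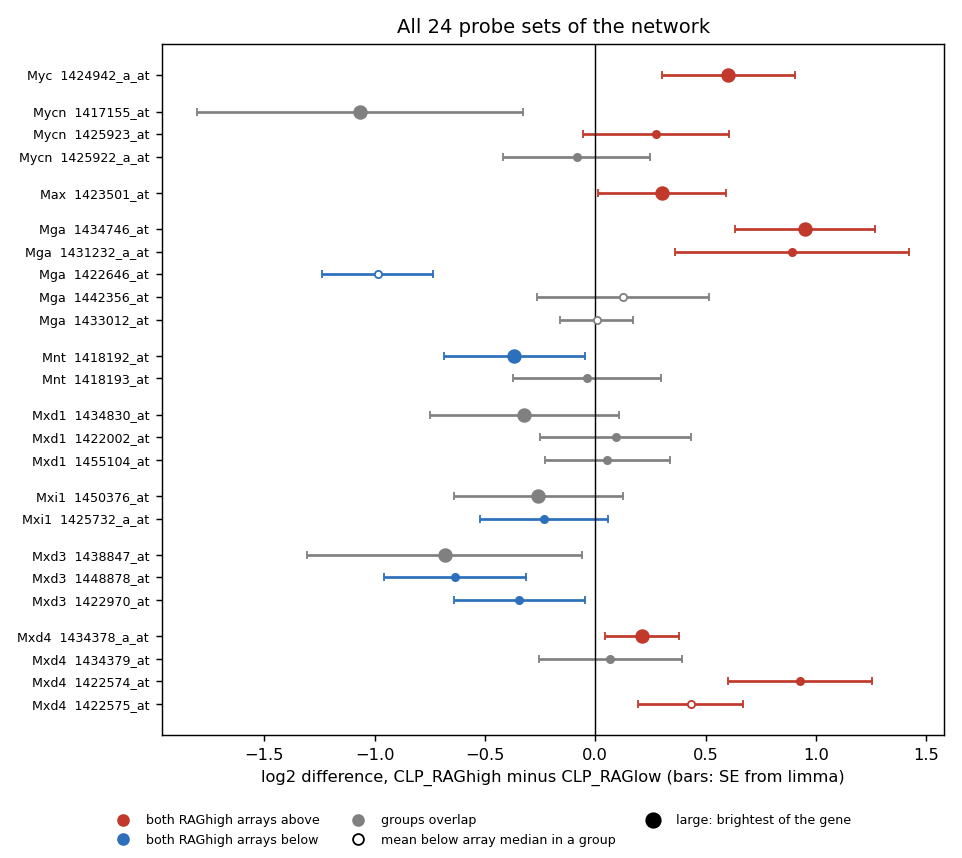
Log2 difference, CLP_RAGhigh minus CLP_RAGlow, of each of the 24 probe sets with the limma standard error, with red for both CLP_RAGhigh arrays above, blue for both below and grey for overlap. All 4 Mxd4 probe sets lie right of 0 and all 3 Mxd3 probe sets left of it, while those of Mga reach from -0.99 to 0.95.

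Which gene moved most with 1 array is shown by the differences with each array left out. Myc, Max, Mga and Mxd4 stayed above 0 and Mycn and Mnt below it in all 4 cases, with Max from 0.21 to 0.40 and Mxd4 from 0.13 to 0.29. Mxd1, Mxi1 and Mxd3 each crossed 0 in 1 case, and Mycn ran from -2.02 to -0.11.

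**Figure D3:**
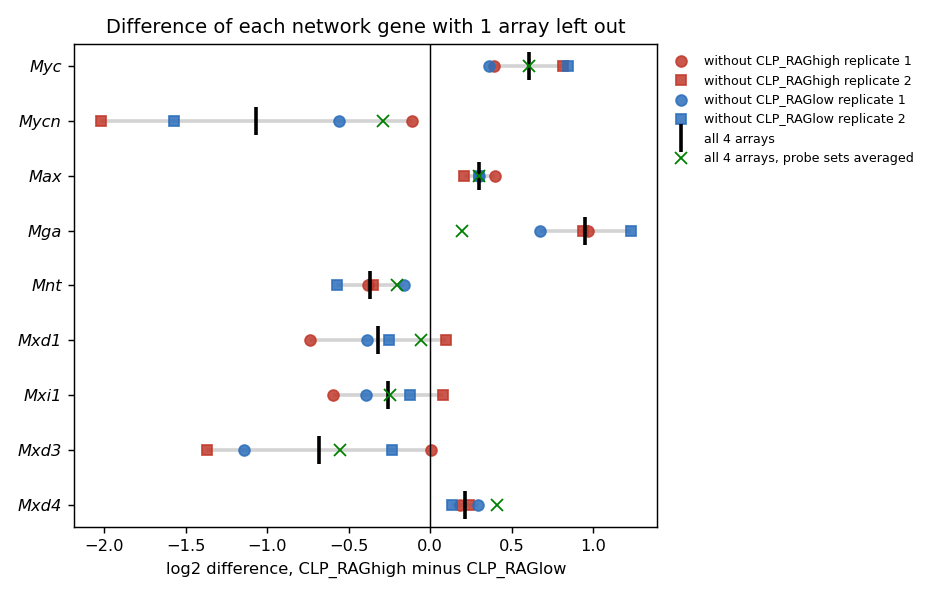
Log2 difference of each network gene, CLP_RAGhigh minus CLP_RAGlow, with all 4 arrays (black bar), with each array left out (red for CLP_RAGhigh, blue for CLP_RAGlow, circles for replicate 1 and squares for replicate 2) and with probe sets averaged (green cross). Mycn spans -2.02 to -0.11, and averaging moves Mga from 0.95 to 0.20.

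Profiles over the 4 arrays were compared for the 2 most variable genes of the network, Mycn and Mxd3, by the root mean square distance between log2 values centred on each gene's mean, among 11576 genes at or above the median brightness. Nearest to Mycn were Prmt6, an arginine methyltransferase, at a distance of 0.092, Hsdl2 at 0.13 and Oas1c at 0.165. Nearest to Mxd3 were Ube2c, the ubiquitin-conjugating enzyme of the anaphase-promoting complex, at 0.026, Bivm at 0.051 and 2700046G09Rik at 0.068. Ube2c had log2 values of 4.78 and 6.20 in CLP_RAGhigh and 5.69 and 6.65 in CLP_RAGlow. Its order of arrays is that of Mxd3, which follows from its choice as the nearest profile. The distances rest on 4 arrays and are a description.

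Of 5 related genes outside the network, Mlxip had the widest difference. It encodes MondoA, a glucose-responsive factor that pairs with MLX, the MAX-like partner that also binds MXD1, MXD4 and MNT. Mlxip had intensities of 719 and 361 in CLP_RAGhigh and 135 and 241 in CLP_RAGlow. Both CLP_RAGhigh arrays were higher, by 1.5 ± 0.48 in log2 (SE, limma adjusted p = 0.869) or 2.83-fold, with 1.0 as the lowest and 2.0 as the highest value when 1 array was left out. Its partner Mlx had 48.1 and 31.7 against 55.7 and 37.8, with overlap and a difference of -0.23. Mlxipl, the related ChREBP, was dim and differed by 0.33, and the MYC relatives Mycl and Bmyc differed by 0.05 and 0.22 with overlap.

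Cofactors of MYC and co-repressors of MXD proteins had small differences, and 0 genes of any list passed limma over all genes. Of 11 MYC cofactors, 2 were separated above and 3 below (15.4% and 15.8% over all genes). Among them were the acetyltransferase gene Kat2a at 0.53 ± 0.29 and Ep400, a chromatin remodeller, at -0.66 ± 0.27 (its 7 probe sets ran from -0.87 to 0.32). Zbtb17, which encodes MIZ1, differed by 0.49 ± 0.32 and Wdr5 by -0.54 ± 0.37, with 1 of the 2 probe sets of each going the other way. Of 8 co-repressor genes, 0 were separated above and 4 below, beside the same shares over all genes. Suds3 of the SIN3 complex was at -0.56 ± 0.30, Rbbp4 at -0.17 ± 0.10 (0.01 without probe sets marked as cross-hybridising) and Rbbp7 at -0.16 ± 0.11. Sin3b differed by -0.25 ± 0.25 (0.11 with its probe sets averaged). The medians were -0.09 for cofactors (0.023 without CLP_RAGlow replicate 1) and -0.14 for co-repressors (-0.037 with probe sets averaged), against 0.00275 over all genes.

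Genes that control the stability of MYC proteins had a median of -0.44 over 9 measured genes, with 2 separated above and 2 below (15.4% and 15.8% over all genes). The median was -0.16 with probe sets averaged, -0.19 without CLP_RAGhigh replicate 1, -0.098 without CLP_RAGhigh replicate 2 and -0.12 without CLP_RAGlow replicate 1. Skp2, a ubiquitin ligase subunit for MYC and for cell cycle inhibitors, was at 52.9 and 221 in CLP_RAGhigh and 280.4 and 324 in CLP_RAGlow, which is -1.48 ± 0.69 in log2. The difference of Skp2 was -0.45 without CLP_RAGhigh replicate 1 and -2.51 without CLP_RAGhigh replicate 2, and the lowest and highest of 6 probe sets were -1.96 and 0.89. Cip2a, an inhibitor of the phosphatase that destabilises MYC, differed by -1.21 ± 0.46, but its other probe set gave 0.29. Ppp2r5a, a regulatory subunit of that phosphatase, differed by 0.47 ± 0.20, and Huwe1, a ubiquitin ligase, by 0.67 ± 0.36, with probe sets from -0.25 to 1.04.

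Genes known to be induced by MYC were close to even between the groups. Of 34 measured genes, 21 were above and 13 below by their means in CLP_RAGhigh, and 7 were separated above and 6 below (15.4% and 15.8% over all genes). The median was 0.09 (-0.00795 without CLP_RAGhigh replicate 2). None had an unadjusted limma p under 0.05, which 2.35% of all genes had upward and 2.94% downward. Odc1, of polyamine synthesis and a classical MYC target, was lower in CLP_RAGhigh, at 836 and 837 against 1200.4 and 1060, a difference of -0.43 ± 0.21. The nucleolar genes Fbl and Pa2g4 differed by -0.34 ± 0.17 and -0.33 ± 0.19, and Tfrc, the transferrin receptor, by 0.42 ± 0.22, so the genes with the smallest p went both ways. At least 1 probe set of Pa2g4 and of Tfrc went against the brightest one.

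Genes known to be repressed by MYC, in part through MIZ1, also went both ways, with 2 of 10 separated above and 3 below (15.4% and 15.8% over all genes). Their median was -0.09 (-0.65 without CLP_RAGhigh replicate 1). Ndrg1, named for its repression by N-MYC, had intensities of 127 and 183 in CLP_RAGhigh and 609 and 537 in CLP_RAGlow. Both CLP_RAGhigh arrays were lower, by -1.91 ± 0.34 in log2 (SE, limma adjusted p = 0.465), and its 5 probe sets ran from -2.15 to -0.29. The cell cycle inhibitor gene Cdkn1a was higher, at 330 and 309 against 161 and 125, a difference of 1.17 ± 0.34. Its relative Cdkn1c, dim in CLP_RAGhigh, differed by -1.33 ± 0.26 (-0.45 with 32 added before log2), and the survival gene Bcl2 by -0.81 ± 0.26 (-1.55 with its 5 probe sets averaged, which ran from -2.95 to -0.12). These 4 genes, 1 upward and 3 downward, were the ones of this list with an unadjusted limma p under 0.05. Over all genes 2.35% were so upward and 2.94% downward. The limma adjusted p values of the 4 over all genes ran from 0.465 to 0.869.

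The list of 15 proliferation genes had 0 members with a higher mean in CLP_RAGhigh and a median of -1.23. An unadjusted limma p under 0.05 was found for 9 of them, all lower, against 2.94% of all genes downward. Cdc20 and Ccnb2, of mitosis, were at -1.23 ± 0.24 and -1.46 ± 0.31, Aurkb at -1.25 ± 0.36, and Rrm2, of nucleotide supply, at -1.40 ± 0.35, with 1 of its 3 probe sets at 0.05. The median was -0.52 without CLP_RAGhigh replicate 1 and -0.73 without CLP_RAGlow replicate 2. The network's genes were on both sides of 0 in their brightest probe sets. Mycn, Mxd1, Mxd3, Mxi1 and Mnt were below it and Myc, Max, Mga and Mxd4 above it. The signs of Mxd1, Mxd3 and Mxi1 changed with 1 array left out. Those of Mycn, Mxd1 and Mga differed between probe sets. A link of the network's genes to the proliferation genes was not tested.

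**Figure D4:**
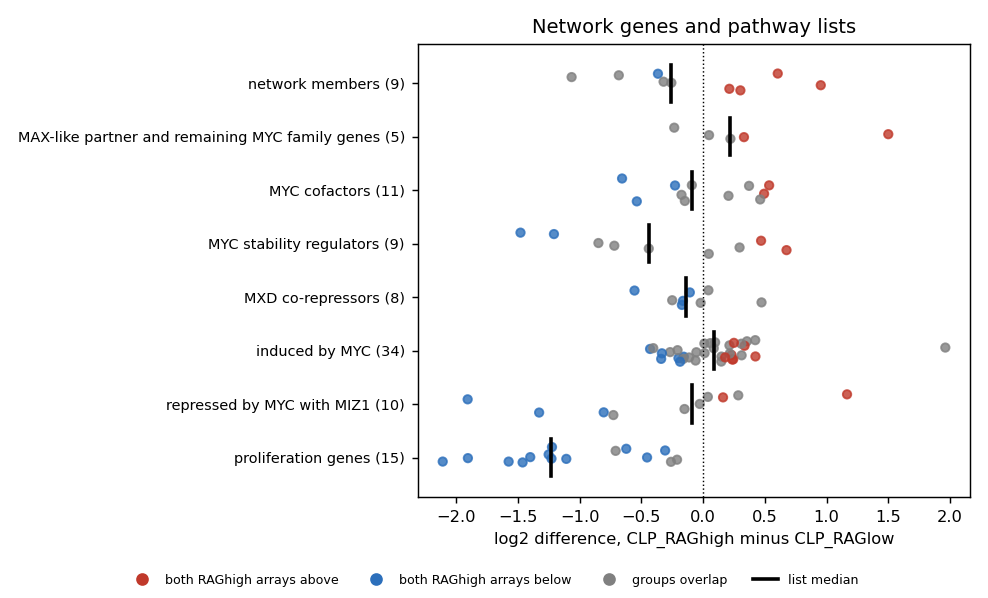
Log2 difference, CLP_RAGhigh minus CLP_RAGlow, of each measured gene (points) in the network and in 7 lists, with red for both CLP_RAGhigh arrays above, blue for both below and grey for overlap, and a bar at each list's median. All 15 proliferation genes lie left of 0, whereas the 34 genes induced by MYC lie around 0 with a median of 0.09.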

How the data were processed

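RNA of 4 samples was amplified in a dual round, labelled with biotin and hybridised to MOE430_2 arrays, per the labels. The authors deposited RMA intensity values, per the labels and the series design; their software, version and filters: not given in the sources used here. As the values ran from 2.35 to 19892, they were read as linear and turned into log2. No detection calls were used, and having only 4 arrays limits the precision.

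After removal of 64 controls from 45101 rows, 45037 probe sets remained, of which 34945 had 1 gene in the platform annotation, 932 several and 9160 none. The brightest probe set of each gene was kept, and all probe sets were also fitted together. The test was limma 3.58.1 in R 4.3.3 (lmFit and trended eBayes). It was two-sided, and p-values were adjusted by Benjamini and Hochberg's method over all genes or all probe sets. The fits had 2 residual and 3.75 (genes) or 2.83 (probe sets) prior degrees of freedom; values of a gene's brightest probe set come from the gene fit. The fit was tested on simulated data with log2 shifts larger than any difference in the network, so its power at the network's differences was not tested.

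The members, lists and alternatives were chosen with earlier results of these data known. Lists held 100 genes of the pathway, of which 92 were measured, and markers of 8 cell types. Named genes are the members, Rag1, up to 4 genes a list by p and, for the 2 most variable members, the 3 nearest profiles; all 5 relatives of the network were named, and cell type markers only where a result turned on them. The alternatives were averaged probe sets, no cross-hybridising probe sets, an offset of 16 or 32, quantile or median scaling, a brightness filter, other variance models, each array left out and a replicate block.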

Additional observations from a re-analysis of the deposited data

How the results depend on the processing

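No gene passed the threshold, and over the alternatives the adjusted p of the 9 network genes stayed between 0.566 and 1.0. Over all genes the count past the threshold was 2 with probe sets averaged, 3 with quantile normalization, 1 among genes at or above the median brightness and 7 with the replicate block, none of them in the network, and 0 otherwise. Whether same-numbered samples share more than a number is not given by the labels. The correlation of their deviations was -0.055 over all probe sets, which rests on 2 arrays a group and cannot settle it. The network median of -0.258 was -0.0578 with probe sets averaged, -0.233 and -0.206 with offsets of 16 and 32, and from -0.163 to 0.0945 with 1 array left out; the cause was not tested. The count of network genes separated below was 2 with probe sets averaged and from 2 to 3 with 1 array left out, where fewer arrays separate more easily, and that above was 3 to 5. The 3 changes of sign in the network came from left-out arrays: Mxd1 ran from -0.737 to 0.0945, Mxi1 from -0.596 to 0.0806 and Mxd3 from -1.37 to 0.00392.

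Medians of lists with 1 array left out ran from 0.0154 to 0.441 for the relatives of the network, from -0.145 to 0.0231 for MYC cofactors, from -0.408 to -0.0977 for stability regulators, from -0.00795 to 0.134 for genes induced by MYC, from -0.648 to -0.12 for genes repressed by it and from -1.42 to -0.523 for proliferation genes. With averaged probe sets, stability regulators had -0.158 and co-repressors -0.0373, and with cross-hybridising ones left out -0.296 and -0.0482. Genes repressed by MYC had -0.728 among the 7 at or above the median brightness. Mlx ran from -0.536 to 0.0662 and Mycl from -0.595 to 0.69 with 1 array left out. Without cross-hybridising probe sets Cip2a was 0.287, Rbbp4 0.0121 and Rrm2 0.0542, and Sin3b was 0.109 with probe sets averaged. Leaving out 1 array leaves a group with 1 sample, which is assumed to vary like the other group.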
